A study of Mus musculus with 14 samples.

Results

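Neuronal nuclei of the Late group, collected 5 days after contextual fear conditioning, were compared with nuclei of the Basal group at accessible regions of the mouse genome. The assay was ATAC-seq: a transposase inserts sequencing adapters into accessible DNA, so that reads pile up where chromatin is open. Of the 191271 regions in the deposited table, 172018 entered the comparison: those with a mean RPKM (reads in the region, divided by its length and by the library's read total) over all 14 libraries of at least 0.83. The 99 regions of chrUn_random were left out, and 19154 others lay under the minimum. Just inside it, chr3:78399594-78399945 had a mean of 0.830011 RPKM (0.716 in Late and 0.801 in Basal), and just outside it, chr5:84727994-84728954 had 0.829996 RPKM (0.978 in Late and 0.662 in Basal).

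Both groups came from mice that carried ArcCreERT2 and a R26R-STOP-floxed- reporter of eYFP (yellow fluorescent protein), with the genotype +/+, given 4-hydroxytamoxifen before conditioning and a foot shock on day 0. Late (n = 4 libraries) had its tissue collected on day 5 without recall, after further days of housing in the dark and then in a normal light cycle. Basal (n = 4) is labelled with collection on day 0 without recall, the same treatment label as the Early group (n = 3). Reactivated (n = 3) had recall on day 5, and its replicates 1 to 3 are labelled with collection on days 5, 6 and 7. In this strain the promoter of Arc drives the inducible Cre, so the reporter marks only cells in which Arc was active around the tamoxifen dose. Hippocampi of 10-12 mice were pooled, and nuclei were sorted by staining for NeuN, which marks neurons, for Arc and for GFP. The labels do not say which sorted population each library holds, so time, housing and sorted population cannot be told apart between Late and Basal. The table pairs no region with a gene, so the neuronal label was not checked against marker genes, and regions are named by their position on the mm9 build.

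The hippocampus is needed to form contextual fear memories, and the sparse neurons active during learning are thought to hold part of the memory trace (the engram). Neuronal activity is known to open enhancers, which are mostly narrow accessible sites far from genes. Promoters of active genes often form wide accessible sites that stay open in many cell types. Region width, spacing and level are therefore informative about the kind of site, though none of the regions is annotated here.

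The 4 Late and 4 Basal libraries differed at many regions, in both directions. On the deposited scale 41165 regions were higher in Late (23.9% of those tested) and 10375 lower (6.03%; limma, Benjamini-Hochberg adjusted p under 0.05). The median log2 fold change over all tested regions was 0.28, with 10% of regions under -0.47 and 10% over 0.93. The median level also differed between the libraries. It was 1.28, 1.04, 0.972 and 1.14 in Basal replicates 1 to 4 and 1.38, 1.42, 1.51 and 1.45 RPKM in Late replicates 1 to 4. All 4 Late medians lay above all 4 Basal medians (1.44 ± 0.0544 against 1.11 ± 0.133, SD, n = 4 each; 2-sided exact permutation p = 0.0286, the smallest that 4 against 4 allow, 0.05 adjusted over 7 library measures and so not under 0.05). Of the calls on this scale, 79.9% were higher in Late.

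When each library was divided by its median, the balance of the calls changed. On this median-scaled basis 25695 regions were higher in Late (14.9%) and 27322 lower (15.9%), so that 48.5% of calls were higher. The median fold change was then 0.01, a shift of 0.27 from the deposited scale. All 25695 higher regions were also called higher on the deposited scale, and all 10375 regions called lower there were lower after scaling. The other 16947 lower calls appeared only after scaling, and 15470 higher calls only without it. In what follows, fold changes are log2 values on the median-scaled basis unless the deposited scale is named. The 4 Late libraries lay without overlap above the 4 Basal libraries at 28334 regions (16.5%) and below them at 28383 (16.5%), and on the deposited scale at 50889 (29.6%) and 10842 (6.3%).

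These calls take the Late libraries as 4 samples. Averaged to 1 sample, assumed to vary like the libraries of the other groups, they gave 0 calls in limma on either scale (24972 at an unadjusted p under 0.05 on the deposited scale, 28395 after scaling). Leaving out Basal replicate 3 lowered the higher calls on the deposited scale to 27044, and a covariate for the percentage of reads inside regions lowered them to 25664.

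The recovered depth was 54266315 to 54269492 reads in Basal and 46134253 to 47375212 reads in Late. Early had 54257745 to 54261749 reads and Reactivated 54257222 to 56251676, so Late alone was lower. Depth thus differs between Late and Basal together with time, housing and sorted population, and its part was not tested. The median region held 25 to 32 reads in Basal libraries and 31 to 34 in Late libraries. Between 13.2% and 19.3% of reads fell in regions in Basal and between 18.4% and 20.02% in Late (15.7% ± 2.71 and 19.2% ± 0.653, SD, n = 4; exact permutation p = 0.114). Within a group, the log2 values of the libraries correlated at 0.673 to 0.738 in Basal and 0.656 to 0.693 in Late across regions, which are not independent replicates. The group means of Basal and Late correlated at 0.318 (Pearson) and 0.188 (Spearman) across the 172018 regions.

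Region width separated the regions that stood lower in Late from those that stood higher. Regions under 200 bases (13314) had a median fold change of -0.37, with 28.2% lower and 8.94% higher. Without the minimum level the 16627 regions of this width had a median of -0.21, with 22.1% lower. Regions of 500 to under 1000 bases (60289) had a median of 0.08, with 10.2% lower and 17.3% higher. At the wide end, the 2580 regions of 2000 bases or more had a median of -0.26, with 34.6% lower and 4.65% higher. The classes between were close to the median of all regions: -0.01 for 200 to under 500 bases (67473 regions) and -0.01 for 1000 to under 2000 bases (28362). Both the narrowest and the widest regions thus stood lower in Late relative to the rest, and those of middle width stood slightly higher.

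The median log2 level of the narrowest class was 1.21, 1.27, 1.27 and 1.23 in Basal replicates 1 to 4 and 0.92, 0.90, 0.88 and 0.92 in the Late replicates. That of the widest class was 1.43, 1.25, 1.25 and 1.30 in Basal and 1.08, 1.11, 1.07 and 1.09 in Late. In neither class did the groups overlap. In Basal, narrow and wide regions both stood well above the library median of 0.89, while in Late the narrow regions stood close to it. On the deposited scale the narrowest class was nearly even (14.7% higher, 16.7% lower, median -0.08), and the widest class had 9.19% higher and 2.56% lower with a median of 0.04. The direction of the widest class thus turns with the scale. So does that of the narrowest without the minimum level, where its deposited median was 0.04. Narrow regions rest on fewer reads: a median of 14.5 per region in Basal, against 30.5 over all regions.

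**Figure D1:**
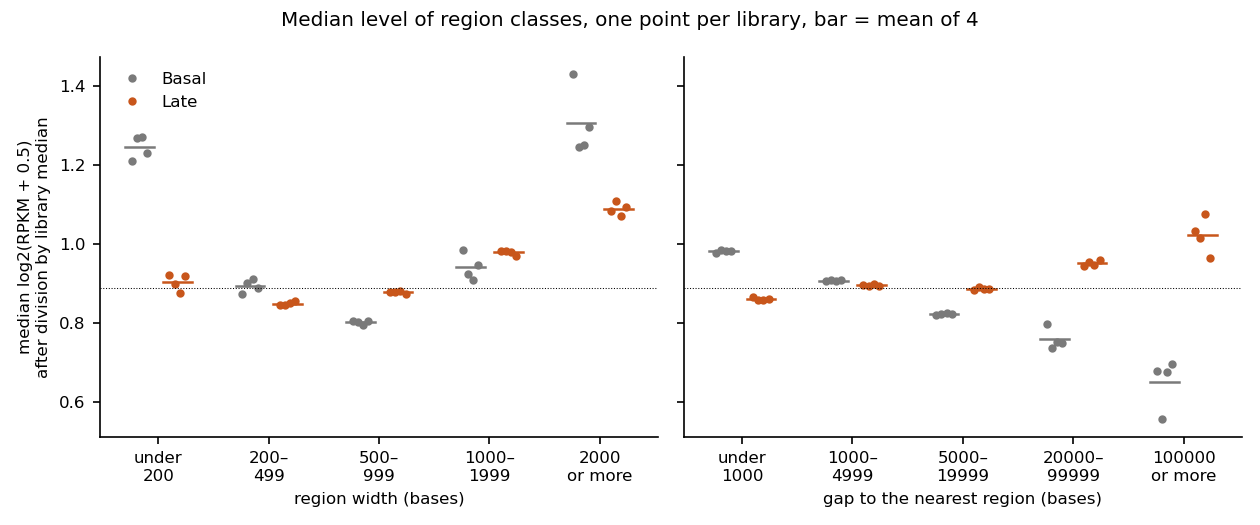
Median log2(RPKM + 0.5) after division by the library median (y axis) for classes of region width (left) and of gap to the nearest region (right), with 1 point per library, bars at the mean of 4 and a dotted line at the median of all tested regions. Basal is high at both ends of the width range and falls with the gap, from 0.98 to between 0.56 and 0.70, while Late goes from 0.86 in the crowded class to between 0.96 and 1.07 in the last, with a small drop between the middle classes. The last gap class holds the 90 of 256 regions that reached the minimum level, and its values rest on that minimum.

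Spacing was the next property. The gap is the number of bases to the nearest other region of the table. The 31331 regions within 1000 bases of another had a median fold change of -0.10, with 20.9% lower and 10.8% higher. The median was 0.00 at gaps of 1000 to under 5000 bases (78837 regions), 0.06 at 5000 to under 20000 (53803) and 0.17 at 20000 to under 100000 (7957, of which 23.7% were higher and 10.8% lower). The 90 regions at least 100000 bases from any other had a median of 0.40, with 34.4% higher and 7.78% lower. On the deposited scale the median was above 0 in each gap class, from 0.18 in the crowded class (18.2% higher, 8.96% lower) to 0.43 at gaps of 20000 to under 100000 bases (35.2% higher, 3.03% lower). The direction of the crowded class therefore holds only relative to the rest of the genome, while the order of these classes was the same on both scales.

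The order of the classes differed between the 2 groups. The crowded class had a median log2 level of 0.98 in each Basal library and 0.86 in each Late library. At gaps of 20000 to under 100000 bases the 4 Basal libraries were at 0.80, 0.74, 0.75 and 0.75 and the 4 Late libraries at 0.94, 0.95, 0.95 and 0.96. Crowded regions were thus the more accessible ones in Basal and the less accessible ones in Late. The crowded class minus the class of 100000 bases or more, on the deposited scale, was 0.31 ± 0.06 in Basal and -0.16 ± 0.05 in Late (SD, n = 4 each), a difference of -0.47 without overlap (exact permutation p = 0.0286, 0.05 adjusted over 7 measures). Without the minimum level that difference was 0.03 (exact permutation p = 0.743), and the class then held 256 regions, 62 of them at 1 read in all 8 libraries. The other gap classes kept their order without the minimum, with medians of -0.09, 0.00, 0.05 and 0.11.

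Width and spacing were then crossed. Regions under 200 bases within 1000 bases of a neighbour (2916) had a median fold change of -0.53, with 34.1% lower and 4.94% higher. Regions as narrow with gaps of 20000 to under 100000 bases (631) had a median of 0.12. For widths of 200 to under 500 bases the corresponding medians were -0.21 (12529 regions) and 0.28 (3428). For 500 to under 1000 bases they were 0.02 (11083) and 0.20 (2480). In regions of 1000 to under 2000 bases the order was turned, with -0.02 when crowded (4480) and -0.15 at gaps of 20000 to under 100000 bases (1296). Those of 2000 bases or more stood lower in both, at -0.24 (323) and -0.39 (122). Among the tested regions, the higher level of distant regions in Late was therefore found in those under 1000 bases. These crossed values cover only regions at the minimum level, which a region low in Basal reached only through other groups. Without the minimum, the whole class at gaps of 20000 to under 100000 bases went from 0.17 to 0.11.

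Position along the genome was examined in the same way. Chromosome X stood apart: of its 3365 tested regions 35.3% were higher and 4.46% lower, with a median fold change of 0.40, against 14.5% and 16.1% and a median of 0.00 on the autosomes (168650 regions). The median log2 level on X was 0.64, 0.51, 0.44 and 0.57 in the Basal replicates and 1.00, 0.93, 1.01 and 0.93 in the Late replicates. X was thus well below the library median in Basal and slightly above it in Late. Only 74.3% of the 4526 X regions reached the minimum level, against 89.98% of all regions, and a region low in Basal reached it only through the other groups. Without the minimum the median fold change on X was 0.29, with 29.1% higher and 3.73% lower. Within a library, X minus autosomes on the deposited scale was -0.33 ± 0.07 in Basal and 0.09 ± 0.05 in Late (SD, n = 4; difference 0.41, no overlap, exact permutation p = 0.0286, 0.05 adjusted), and the difference was 0.43 without the minimum. Within Basal the measure moved with the share of reads in regions: replicates 3, 2, 4 and 1, with 13.2%, 14.2%, 16.1% and 19.3%, had -0.40, -0.36, -0.30 and -0.25. The Late libraries, with 18.4% to 20.02%, had 0.05 to 0.13. The measure was -0.26, 0.28 and -0.11 in Early replicates 1 to 3, whose shares were 13.8%, 27.8% and 18.1%. In Reactivated replicates 1 to 3 it was -0.10, 0.02 and 0.13, with shares of 24.0%, 21.3% and 23.9%. There the replicate of highest share had the lowest value. The part of this share in the level of X was not tested. On chromosome Y 3 regions were tested and 0 called on either scale.

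Fold changes on X also differed by width. X regions of 200 to under 500 bases (1473) had a median fold change of 0.57, with 44.5% higher, and X regions under 200 bases (244) had 0.52, with 32.8% higher, whereas autosomal regions under 200 bases had -0.39. Without the minimum these X medians were 0.45 (1973 regions) and 0.08 (482 regions, of which 50.6% had been tested), so the value of the narrowest X regions rests on the minimum. The 87 X regions of 2000 bases or more had a median of -0.25, with 0% higher and 27.6% lower, next to -0.26 for autosomal regions of that width. The widest X regions thus shared the value of the widest autosomal ones. Among tested X regions spacing kept its order, from 0.12 in crowded regions (318) to 0.61 at gaps of 20000 to under 100000 bases (661). Before the minimum these classes held 426 and 976 X regions, so these values too cover only regions that reached it. On the autosomes the same classes ran from -0.10 to 0.13.

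Among the autosomes, chromosomes 9 and 16 stood highest in Late, with median fold changes of 0.14 each (7188 and 4953 regions; 19.1% and 21.3% higher). Chromosome 7 stood lowest, with -0.19 over 3422 regions, 5.41% higher and 20.7% lower. Its median log2 level was 1.14, 0.98, 1.06 and 1.05 in the Basal replicates and 0.82, 0.94, 0.82 and 0.92 in the Late replicates. The medians of the other 16 autosomes lay between -0.05 and 0.04. On the deposited scale the median of chromosome 7 was 0.10, so that its direction holds only relative to the rest of the genome.

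**Figure D2:**
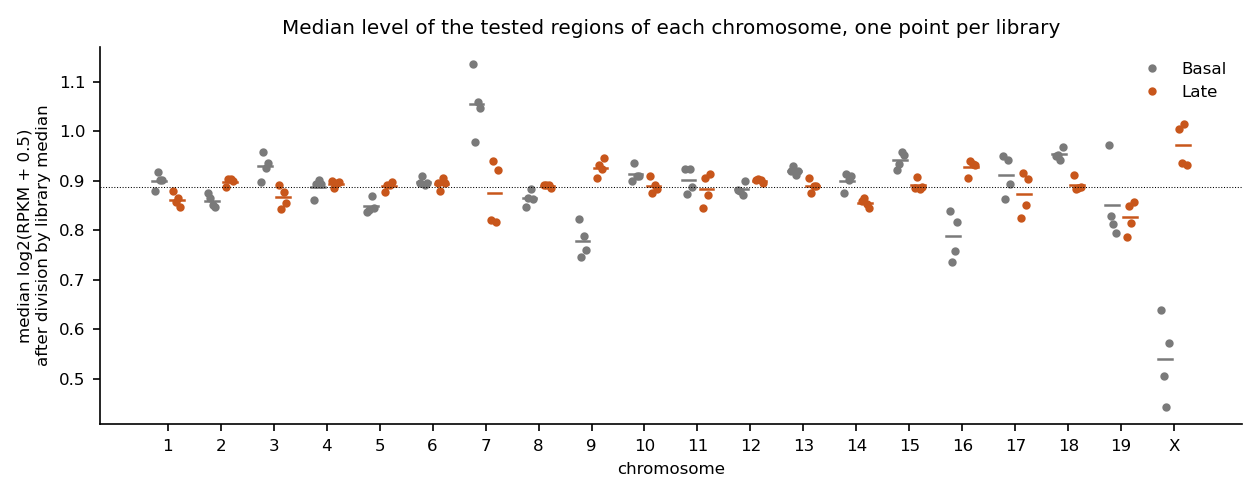
Median log2(RPKM + 0.5) after division by the library median (y axis) of the tested regions of each chromosome (x axis), 1 point per library, bars at the mean of 4. Chromosome X lies between 0.44 and 0.64 in Basal and between 0.93 and 1.01 in Late, and chromosome 7 shows the opposite order.

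Along the chromosomes, from the first to the last region of each, the fold change was highest near the middle and lowest at the distal end. The span was cut into 10 equal parts. The median was 0.06 in part 5 (16651 regions), -0.04 in part 9 (17341) and -0.08 in part 10 (16120; 10.1% higher and 18.6% lower). In part 10 the Basal libraries stood at 0.92 to 0.96 and the Late libraries at 0.81 to 0.87. Both parts had medians above 0 on the deposited scale, at 0.23 and 0.19 (17.4% higher and 7.15% lower in part 10), so their direction is relative to the rest. Part 1, next to the centromere in mouse chromosomes, was at 0.02, with overlapping groups.

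Regional differences reached beyond single regions. In windows of 1000000 bases with at least 20 tested regions (2328 windows), the median fold change ran from -0.29 at the 5th percentile to 0.45 at the 95th. The window medians of the 4 Late libraries lay above those of the 4 Basal libraries without overlap in 589 windows (25.3%) and below them in 429 (18.4%). Neighbouring windows were alike (Pearson r = 0.613 over 2214 pairs of windows on the same chromosome, which share libraries). Single neighbouring regions were only weakly alike, with r between 0.130 and 0.138 at gaps under 100000 bases. At larger gaps r was 0.213 (1649 pairs), so the likeness did not fall with distance. Of the windows, 76 of 82 on X, 98 of 117 on chromosome 9 and 12 of 82 on chromosome 7 had a median above 0.

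The 3 windows of highest median fold change on the deposited scale were chr16:53000001-54000000 (1.19 over 23 regions, 20 called higher and 0 lower), chrX:104000001-105000000 (1.15 over 30 regions, 25 higher and 0 lower) and chrX:59000001-60000000 (1.11 over 21 regions, 18 higher and 0 lower). In the first, the median RPKM was 0.525, 0.509, 0.402 and 0.6198 in the Basal replicates and 1.80, 1.65, 2.15 and 1.87 in the Late replicates. Early replicates 1 to 3 had 0.826, 2.03 and 1.23 there, and Reactivated 1.01, 1.198 and 1.53. All 4 Late libraries were thus far above all Basal ones, with 5 of the other 6 libraries between.

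The 3 lowest windows were chr17:24000001-25000000 (-0.30 on the deposited scale over 43 regions, 7 called lower and 0 higher), chr18:14000001-15000000 (-0.29 over 118 regions, 23 lower and 8 higher) and chr7:112000001-113000000 (-0.28 over 29 regions, 2 lower and 1 higher). The window on chromosome 18 had a median RPKM of 1.68, 1.55, 1.31 and 1.52 in Basal and 1.26, 1.15, 1.35 and 1.36 in Late. The RPKM ranges of Basal and Late overlapped in all 3 windows. On chromosome 18 Late replicates 3 and 4 exceeded Basal replicate 3. After division by the library medians the groups did not overlap in any of the 3 (on chromosome 18, 1.19 to 1.33 in Basal and 0.67 to 0.82 in Late, log2). Its regions were narrow (median 435 bases), those of the windows on chromosomes 17 and 7 wider (786 and 605 bases).

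Consecutive tested regions with the same call on both scales formed 177 runs of 5 or more higher regions, 32 of them on X. Lower regions formed 7 runs of 5 or more, 0 of them on X. The rule left 25695 higher but only 10375 lower regions to form runs, so these counts of runs cannot be compared directly. X held 1187 of these higher regions and 24 of these lower ones, with 3365 of the 172018 tested regions. The longest higher run held 13 regions, chrX:106553094-108006761, with a median RPKM of 0.512, 0.339, 0.205 and 0.325 in Basal and 1.91, 1.83, 1.71 and 1.41 in Late. It spanned 1453667 bases. Of the pair of runs of 12 regions, chrX:61799061-62968993 spanned 1169932 bases and the other only 38506 bases, at chr13:21994687-22033193, from 0.566 to 0.736 RPKM in Basal and from 2.17 to 2.61 RPKM in Late. It is the most compact of these 3 blocks, with a median gap of 2138.5 bases.

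The longest lower run held 14 regions in 44190 bases, chr1:90108161-90152351. The median RPKM was 5.07, 6.24, 7.75 and 6.09 in the Basal replicates and 2.52, 2.64, 1.50 and 1.79 in the Late replicates. The largest adjusted p of its 14 regions was 0.0406 in limma on the deposited scale, with log2 fold changes from -1.77 to -0.68. The next 2 lower runs, of 10 and 6 regions, lie side by side at chr11:3049713-3065956 and chr11:3028358-3045279. They start 48581 and 27226 bases from the first region of the chromosome. The levels there were high, at 12.1 to 20.6 RPKM in Basal and 5.15 to 8.59 RPKM in Late for the run of 10.

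The relation to the baseline level depends on which libraries set that level. The mean over the 6 Early and Reactivated libraries takes no part in the contrast. Along its deciles the median fold change went from -0.16 in decile 1, the lowest (24.0% lower, 10.3% higher), to 0.13 in decile 9 (9.84% lower, 20.4% higher), and back to -0.02 in decile 10. On the deposited scale decile 1 had a median of 0.09 (18.6% higher, 12.998% lower), decile 9 of 0.42 and decile 10 of 0.29. Along deciles of the Basal mean it fell at every step, from 0.74 (69.0% higher) to -0.60 (55.9% lower). The Basal mean is itself part of the contrast, and a region that is low there by error is then higher in Late, so this second order is a description only. The highest minus the lowest decile was 0.89 ± 0.27 in Basal and 1.11 ± 0.03 in Late when the other 6 libraries set the deciles (SD, n = 4, log2 on the deposited scale), with overlapping groups (exact permutation p = 0.143).

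The lowest decile is also touched by the minimum on the 14-library mean: a region low in the 6 other libraries enters only if it is higher in Basal or Late. Without the minimum its median was 0.00, and deciles 9 and 10 stood at 0.12 and -0.02. At the very top the direction was lower in Late. The 1720 regions of highest level in Early and Reactivated had a median of -0.57, with 56.6% lower and 2.56% higher. Their median on the deposited scale was -0.22, with 5.29% lower and 3.14% higher, so few of them passed the test there in either direction. The 172 highest had a median of -1.01, with 94.2% lower and 0% higher (on the deposited scale 23.3% lower, 0% higher, median -0.64).

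Width and level crossed. In regions under 200 bases the median fold change was -0.48 in the lowest decile of level, -0.59 in decile 4 and 0.08 in the highest. In regions of 200 to under 500 bases it went from -0.31 to 0.22. In regions of 1000 to under 2000 bases it stayed between -0.01 and 0.08 up to decile 9 and was -0.27 in the highest (5898 regions, 32.6% lower). In regions of 2000 bases or more it was -0.16 in the lowest and -0.46 in the highest decile (869 regions, 55.7% lower and 0.921% higher). Deciles drawn over all regions, without the minimum, changed the lowest decile most: regions under 200 bases then had -0.03 there, -0.57 in decile 4 and 0.04 in the highest, and regions of 200 to under 500 bases had -0.02 in the lowest. The values of wide regions in the highest decile were -0.26 (1000 to under 2000 bases) and -0.47 (2000 bases or more). The values of the lowest decile thus rest on the minimum, and those of the highest decile do not.

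**Figure D3:**
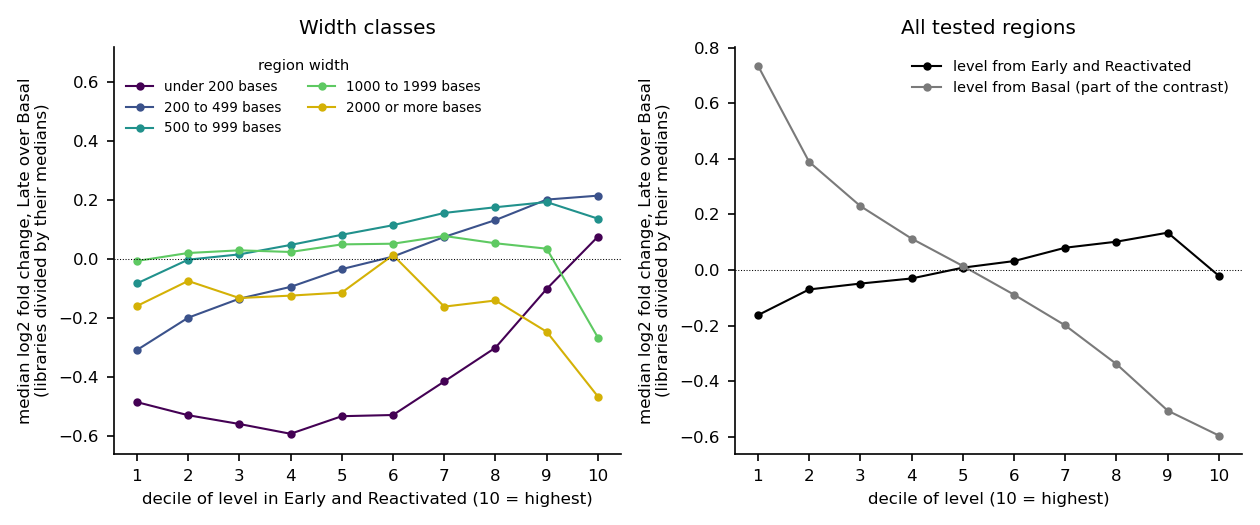
Median log2 fold change of Late over Basal after division by library medians (y axis) along deciles of level (x axis, 10 = highest). Left, width classes with the level from Early and Reactivated: the narrowest go from -0.48, which rests on the minimum level, to 0.08 and the widest drop to -0.46. Right, all tested regions, with the level from Early and Reactivated or from Basal, which is part of the contrast.

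The range of levels within a library was smaller in Late. The RPKM exceeded by 0.1% of the tested regions, divided by the library median, was 9.85, 6.79, 6.34 and 7.64 in the Basal replicates and 4.23, 4.10, 3.99 and 3.92 in the Late replicates (difference -3.60, no overlap, exact permutation p = 0.0286, 0.05 adjusted over 7 measures). At the low end the 1st percentile stood at 0.178 to 0.209 of the median in Basal and at 0.269 to 0.292 in Late. The 90th percentile was 1.97 to 2.09 times the median in Basal and 1.74 to 1.77 times in Late. Among tested regions, Late values thus lay closer to the median at both ends, and the 4 Late libraries lay closer together than the Basal ones at the upper end. The low end covers only regions that reached the minimum level, and no value lies under 1 read. Late was also the less variable group region by region: the median SD over 4 libraries was 0.21 in Late and 0.27 in Basal (log2). The part of this narrower range in the fold changes of high and low regions was not tested.

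**Figure D4:**
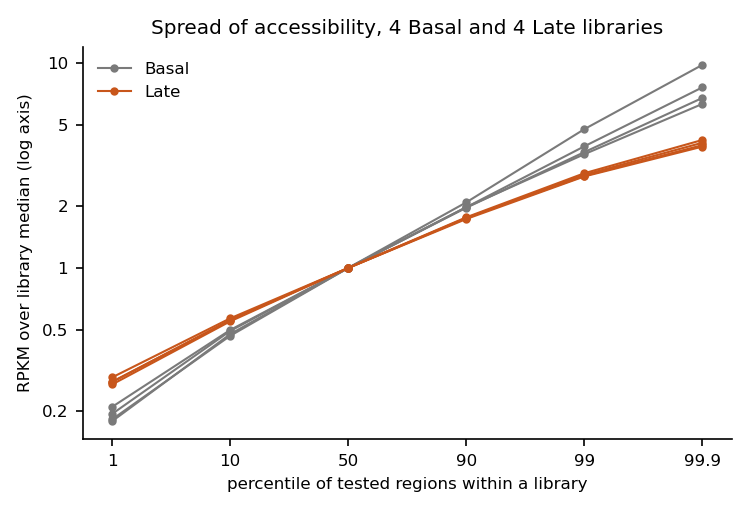
RPKM at 6 percentiles of the tested regions divided by the library median (y axis, log scale), 1 line per library. The Late lines are flatter than the Basal lines at both ends, with 3.92 to 4.23 against 6.34 to 9.85 at the level exceeded by 0.1% of regions.

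The regions named next are the 3 largest fold changes on the deposited scale in each direction and width class, among regions called on both scales, without overlap and with a mean of at least 20 reads in the higher group. Many regions met these conditions, from 65 lower regions of 2000 bases or more to 9380 higher regions of 500 to under 1000 bases. All 30 were chosen for their difference, so their p-values describe the fit and are no independent support. All p-values are from limma with Benjamini-Hochberg adjustment, and fold changes here are on the deposited scale with their standard error.

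Among regions under 200 bases, chr16:83696078-83696276 had 0.0931, 0.186, 0.0931 and 0.0931 RPKM in the Basal replicates and 2.83, 2.74, 3.73 and 1.40 RPKM in the Late replicates (log2 fold change 2.31 ± 0.31, adjusted p = 0.00019). The Basal values are 1 or 2 reads, the lowest the table lists, so the fitted fold depends on the pseudocount: it was 1.68 with a pseudocount of 1 and 3.62 with 0.1. At chr8:59363111-59363289 Basal replicate 1 had 2.28 RPKM and the other 3 had 0.104 to 0.414, against 4.38 to 4.66 in Late (2.30 ± 0.35). Lower in Late was chr4:27886148-27886322, at 2.44, 2.54, 2.33 and 2.54 RPKM in Basal and 0.371, 0.125, 0.849 and 0.122 in Late (-1.85 ± 0.23, adjusted p = 0.000167). Its Basal libraries agree closely, at 22 to 24 reads. Early had 0.847 to 1.59 RPKM there and Reactivated 1.06 to 1.53, both between the groups compared.

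In the class of 200 to under 500 bases, chr13:87575525-87575785, 54739 bases from its nearest neighbour, had 0.283, 0.142, 0.142 and 0.142 RPKM in Basal and 3.15, 2.25, 3.90 and 2.78 in Late (2.36 ± 0.25, adjusted p = 0.000106). It was the largest of the 15 named rises, and again few reads (2 to 4) stand behind Basal. The lower region chr11:108872960-108873401 is of another kind, with 38.8, 36.2, 39.9 and 38.6 RPKM in Basal and 9.67, 9.88, 11.9 and 10.1 in Late (-1.84 ± 0.29, adjusted p = 0.000402). It rests on 867 to 955 reads per Basal library. Early had 12.9 to 17.8 RPKM there, near Late, and Reactivated 36.8 to 41.8 RPKM, near Basal.

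For regions of 500 to under 1000 bases the largest rise was at chr6:75705757-75706674, with 0.201, 0.0402, 0.322 and 0.281 RPKM in Basal and 2.33, 2.15, 3.08 and 2.58 in Late (2.10 ± 0.27, adjusted p = 0.000168). At chr13:108679115-108679700 the values were 6.17, 4.57, 3.97 and 4.60 RPKM in Basal and 1.33, 1.30, 1.191 and 1.2004 in Late (-1.59 ± 0.21, adjusted p = 0.000216). Early (2.80 to 3.47) and Reactivated (2.73 to 3.34) lay between. The region chr1:90131631-90132218 (-1.67 ± 0.30) lies inside the run of 14 lower regions described above. All 14 regions of that run were called lower, which the rule for a run requires.

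The widest regions varied less between libraries of a group than the narrowest. At 2000 bases or more the median SD was 0.17 in Basal and 0.10 in Late (log2, median-scaled). Under 200 bases it was 0.44 and 0.37. The part of read numbers in this was not tested. The region chr13:21998756-21999951, 1195 bases wide and inside the compact higher run, had 0.278, 0.247, 0.370 and 0.385 RPKM in Basal (16 to 25 reads) and 2.78, 2.05, 2.58 and 2.40 in Late (1.85 ± 0.21, adjusted p = 0.000152). At chr17:45681813-45682900 the level was 2.20, 1.54, 1.85 and 1.86 RPKM in Basal and 0.436, 0.518, 0.427 and 0.881 in Late (-1.16 ± 0.20, adjusted p = 0.00065). Early stood at 0.492 to 0.814 RPKM there, within the Late range.

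Of the regions of 2000 bases or more, chr5:6870978-6873809 had 0.911, 0.547, 0.521 and 0.579 RPKM in Basal and 3.18, 2.73, 2.94 and 2.45 in Late (1.55 ± 0.25, adjusted p = 0.000465). The next higher ones were chr8:51049335-51051503 (1.23 ± 0.205) and chr13:23376106-23379137 (1.19 ± 0.21), the latter with 0.547 to 0.8997 RPKM in Basal and 2.11 to 2.61 in Late. Of the 2580 regions of this width, 116 met the conditions as higher and 65 as lower, with a call asked for on both scales. After division by library medians alone, 120 were called higher and 893 lower. Among the lower ones, chr11:3032000-3036131 had 10.4, 13.4, 18.7 and 11.8 RPKM in Basal and 6.69, 6.25, 4.01 and 5.09 in Late (-1.22 ± 0.29, adjusted p = 0.00487). It belongs to the pair of runs near the start of chromosome 11.

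Many of the remaining lower regions had high levels in Basal. At chrX:139917553-139917648, 95 bases wide, Basal had 36.1 to 57.2 RPKM and Late 6.89 to 8.16. Of the 244 tested X regions under 200 bases, 3.28% were called lower. The region chr9:35112799-35113174 had 26.8 to 49.4 RPKM in Basal and 6.36 to 7.58 RPKM in Late. The same order was seen at 3 regions between chr2:98502391 and chr2:98507470 and at chr17:39979978-39985726. Mean RPKM at chrX:139917553-139917648 was 36.7 in Early and 64.9 in Reactivated, against 42.7 in Basal. At chr9:35112799-35113174 it was 39.4 and 141 against 35.8, and at chr2:98506396-98507470 44.6 and 141 against 47.7. At chr17:39979978-39985726 it was 33.8 and 92.5 against 85.8. In these regions the mean of Late thus lay below that of every other group. No region of a Late library exceeded 0.738 reads per base, whereas the highest region of each Basal library had 4.11 to 4.92. That of each Early library had 2.14 to 2.57, and that of each Reactivated library 5.04 to 9.75. Late thus stood apart from every other group here, and the source of this was not tested. All 30 named regions kept their direction and call when any 1 Basal or Late library was left out, and all 30 lost the call when Late was averaged to 1 sample.

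**Figure D5:**
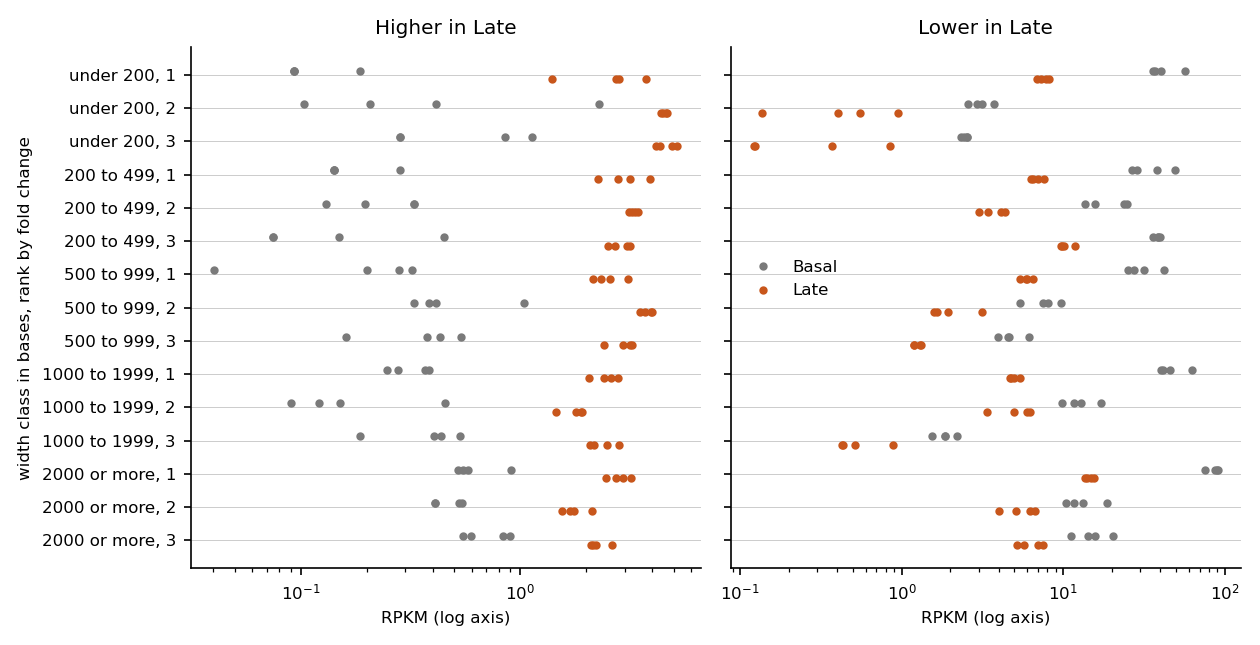
RPKM (x axis, log scale) of the 30 named regions in the 4 Basal and 4 Late libraries, by width class and rank of fold change (y axis), with regions higher in Late on the left and lower on the right. No region has overlapping groups; the higher regions start from 0.0402 to 2.28 RPKM in Basal, while 9 of the 15 lower ones lie above 10 RPKM in all 4 Basal libraries.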

How the data were processed

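The authors deposited 1 table of RPKM values for 14 libraries. Bowtie2 2.0, SAMtools, MACS2, DiffBind 1.16.327, DESeq2 and mm9 are named per the submitters' processing notes, with no role or order; region calling, duplicate removal and cut shifting are not given in the sources used here, and they set region borders and the values of high regions. RPKM times width gave whole reads in 100% of values (tolerance 0.01), which gave the totals; 1 read was the lowest value listed. Values were fitted as log2(RPKM + 0.5), which understates changes of low regions, with limma 3.58.1 in R 4.3.3 (trend, robust, 14 libraries, group means, Late minus Basal, adjusted over all tested regions, threshold 0.05), as deposited and after division by library medians (rescaled by their mean). The labels do not tie libraries to mice, so p-values measure the spread between libraries. Python 3.11.15, pandas 2.3.3, numpy 2.4.6 and scipy 1.17.1 did the rest. Classes are described without tests; 7 measures of 1 value per library got exact permutation tests. The fit was checked on simulated reads; recovery of large changes missed the mark first set, which was then lowered, after the simulated spread had been corrected. The regions, classes and rules were chosen with earlier results of these data known. Alternatives were median scaling, pseudocount, level minimum, libraries fitted, replicate block, limma voom weights, Late averaged, a covariate and libraries left out. Regions were not annotated, since a genome or annotation of mm9 was not used here.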

Additional observations from a re-analysis of the deposited data

Results flagged for a closer look

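Among 74 groups of 4 libraries (7 library measures and 30 named regions in Basal and in Late), 6 held a library far from its 3 fellows relative to the range of the group, where chance alone gives about 1 in 20. All 6 were the highest Basal value of a named region that was higher in Late. These were 0.186 RPKM at chr16:83696078-83696276, 2.28 RPKM at chr8:59363111-59363289, 0.283 RPKM at chr13:87575525-87575785, 1.04 RPKM at chr18:45382623-45383294, 0.453 RPKM at chr2:99491536-99492755 and 0.911 RPKM at chr5:6870978-6873809. At chr16:83696078-83696276 and chr13:87575525-87575785 the other 3 libraries held equal reads (1 and 2), so 1 or 2 reads more were enough.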

How the results depend on the processing

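Dividing libraries by their medians gave 25695 higher and 27322 lower regions and a median log2 fold change of 0.0072. A minimum mean of 1.5 RPKM, which left 66881 regions, gave 15591 higher and 3137 lower (11240 and 13003 after division). With Late averaged to 1 sample 0 passed in each direction and on each scale in limma. A covariate for the percentage of reads inside regions gave 25664 higher (17012 after division) and a median of 0.11. The median was 0.37 with a pseudocount of 0.1 and 0.40 with voom weights. The replicate numbers did not pair the libraries (same-number correlations of deviations -0.0407 to -0.0186); the replicate block, in a fit of the 8 libraries, gave 53125 higher and 13712 lower regions (26170 and 29317 after division), against 56622 and 13979 without the block in the same 8 libraries.

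Leaving out 1 library at a time gave 27044 to 41706 higher and 6985 to 8205 lower regions, 18508 to 22346 and 20088 to 23289 after division, and medians of 0.23 to 0.34. Library measures (Late minus Basal) then ranged from 2.61 to 4.66 percentage points for the share of reads in regions, 0.29 to 0.391 RPKM for the median, -4.03 to -2.87 for the upper tail over the median, -0.18 to -0.10 for narrow minus broad, -0.49 to -0.44 for crowded minus isolated, 0.39 to 0.44 for X minus autosomes and 0.14 to 0.35 for high minus low level; 3 against 4 libraries cannot go below an exact permutation p of 0.0571, so the 4 measures at 0.0286 were then above 0.05.

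Narrow minus broad was -0.13 over all regions (exact permutation p = 0.143), -0.31 in the low and -0.33 in the middle level class of 3, and 0.17 in the high one (exact permutation p = 0.0286 each). This p is the smallest that these libraries allow and was not adjusted for the 3 classes. The classes hold only regions that passed the level minimum. A region low in Early and Reactivated passed it only if it was higher in Basal or Late. The low class thus draws on regions picked through the groups compared, and no conclusion is drawn from its p. Without the minimum, regions under 200 bases in decile 1 went from a median fold change of -0.48 to -0.03. Crowded minus isolated was 0.027 without the level minimum. High minus low level was -1.13 when Basal set the level. Chosen after seeing the data, classes without the minimum turned sign at gaps of 1000 to under 5000 bases (-0.0042) and 100000 bases or more (-0.012) and in deciles 1 (0.00064) and 5 (-0.029) of level; 8 classes moved within the spread between libraries and 8 beyond it. Of 24 further groups without the minimum (chromosomes, X by width, width by level), 12 stayed within that spread, 9 moved beyond it and 3 turned sign, all in decile 1: 0.030 at 500 to under 1000 bases, 0.073 at 1000 to under 2000 and 0.023 at 2000 or more. The causes of these changes were not tested except where stated.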
